A study of Homo sapiens with 9 samples.

Results

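Potassium channel genes were taken as the genes whose array name begins with KCN, goes on with letters and ends with a number. This rule found 93 genes of the 34623 gene names on the array, measured by 115 of its 42405 probes. Of these genes, 76 had 1 probe and 17 had several. All 93 names were still symbols in the RefSeq gene table. RNA came from hNT2 cells, an established human embryonal carcinoma line that takes up a neural fate under retinoic acid. All cultures received 10 µM retinoic acid for 4 days, and the groups differed in the organophosphorus compound in that medium: none in 3 control arrays, 1 µM paraoxon in 3 arrays and 5 µM mipafox in 3 arrays. A single cell line was used, so it stands for 1 genetic background. Within a treatment the arrays are lettered from A to C. The study's methods call these replicates technical while the labels call them biological, so the p-values below measure only the spread between these arrays.

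Potassium channels let potassium leave the cell along its gradient and so hold the resting potential, end the action potential and set how often a neuron fires. Voltage-gated, KCNQ and KCNH subunits open on depolarization, calcium- and sodium-activated subunits respond to ions that enter the cell, inward rectifiers and the leak channels of the KCNK family act near rest, and auxiliary subunits change how the pore-forming ones behave. Acetylcholine acts on several of them: muscarinic receptors close the KCNQ channels that carry the M-current, and open the G protein-gated inward rectifiers KCNJ3, KCNJ5, KCNJ6 and KCNJ9 through G protein beta gamma subunits. Paraoxon inhibits acetylcholinesterase, the enzyme that clears acetylcholine, and mipafox is a neuropathic compound that also inhibits neuropathy target esterase.

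Values are the log2 of an array's processed signal less that array's own 75th percentile, so a value of 0 is as bright as the probe at that percentile. The percentile lay between 802 and 1590 intensity units, and 65.7% to 73.6% of probes were well above background on an array. All control arrays shared slide 1 with mipafox A, and all paraoxon arrays shared slide 2 with mipafox B and C. For paraoxon against control the slide and the treatment therefore cannot be told apart. A fit with slide as a block takes the slide difference from the mipafox arrays alone. Its mipafox difference is mipafox A less control, and its paraoxon difference also rests on mipafox A, the only treated array on slide 1. All 7 pluripotency markers, 5 of 6 neural progenitor markers and 6 of 8 neuron markers were well above background on all 9 arrays. So were 2 of 4 astrocyte markers, although GFAP, another of the 4, was so on no array. The same held for 5 of 6 muscle, 3 of 4 endothelium, 3 of 4 fibroblast and 2 of 2 blood markers. These 2 blood markers were PTPRC, read by 1 of its 5 probes, and CD3E. Another listed blood marker, HBA1, had no probe by that name. Among markers of other cells, the summed level of the 2 blood genes lay from -5.25 to -4.87 in control, from -4.34 to -4.17 in paraoxon and from -5.10 to -4.30 in mipafox. Its part in the differences below was not tested.

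The channel genes were not all measurable in these cells. A probe was taken as measured where the scanner software marked it well above background. By that mark 52 of the 93 genes had a probe above background on all 9 arrays, 23 had none on any array, and the remaining 18 fell between. Over the probes, 60 of 115 were above background on every array (62.1% of all probes were) and 32 on none (22.7% of all probes). The tests took the 69 probes, of 59 genes, that were seen on all 3 arrays of a treatment. They are 60.0% of the channel probes, against 68.7% of all probes. No channel probe was saturated.

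The families differed in which members could be seen. All 5 KCNQ genes had a probe above background on at least 1 array, and 4 of them on all 9. Among the calcium- and sodium-activated subunits 7 of 8 genes were seen on all 9 arrays, the exception being KCNU1, a sperm channel. For the leak channels the count was 10 of 15. The inward rectifiers had 6 of 15 genes on all arrays and 7 on none, and the KCNH subunits 3 of 8 and 2. The 7 were KCNJ1, KCNJ3, KCNJ5, KCNJ6, KCNJ9, KCNJ15 and KCNJ16, and they include all 4 subunits of the G protein-gated channels. KCNA1, KCNA2 and KCNC2, which shape spikes in mature neurons, were likewise above background on no array. A probe below background gives no measure of the gene and does not show that its RNA was missing.

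No channel gene was called as changed by either compound. A call needed a log2 difference beyond 1 together with an adjusted p below 0.05, and of the 69 probes 0 met it with paraoxon and 0 with mipafox (limma over all 9 arrays, Benjamini-Hochberg adjustment over 29134 probes). The share of all tested probes called was also 0% for both. The lowest adjusted p among the channel probes was 0.160 with paraoxon, for KCNT1, and 0.426 with mipafox, for KCNH2. No channel probe differed by more than 1 on the log2 scale in either comparison. The 95% interval of the difference stayed within 1 in both directions for 56 of 69 probes with paraoxon and for 61 with mipafox, so a 2-fold change was outside the interval for most probes but within reach for 13 and 8. The median half-width of the interval was 0.43.

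Without adjustment, 5 of 69 channel probes had p under 0.05 with paraoxon, 3 higher and 2 lower. That is 7.25%, against 13.3% of all tested probes (7.31% higher and 6.02% lower). For mipafox it was again 5 probes, 3 higher and 2 lower. That is 7.25%, against 6.96% (2.96% higher and 4% lower). With a log2 difference beyond 1 as well, 0 channel probes remained in either comparison, beside 2.19% and 0.844% of all probes. That count depended on the fit: with slide as a block it was 3 for paraoxon and 2 for mipafox (2.8% and 1.38% of all probes), with array weights 2 and 1 (2.74% and 3.74%), with quantile normalization 1 and 0 (2.28% and 0.868%), and with no filter on dim probes 0 and 1 (2.72% and 1.58%). The counts at unadjusted p under 0.05 without the fold limit moved with single arrays, and the share of all probes is not given for these fits. For paraoxon the counts ran from 4 to 8 with 1 array left out, the highest without paraoxon B, and for mipafox from 1 to 8. The mipafox count was 1 without mipafox B, 2 without control B or control C, 3 without control A or paraoxon A, and 8 without mipafox A or paraoxon C. The arrays of paraoxon and control did not overlap for 11 channel probes, 4 of them higher and 7 lower with paraoxon. Over all probes 12.4% were separated on the higher side and 11.1% on the lower. For mipafox the counts were 5 higher and 5 lower, beside 5.33% and 6.46% of all probes. The median log2 difference of the channel probes was 0.04 with paraoxon, where all probes had 0.01, and 0.01 with mipafox, where all probes had 0.00. By direction, 39 of 69 channel probes lay above control with paraoxon (51.9% of all probes did) and 35 with mipafox (50.2%). This split moved with the background correction. After normexp correction 46 of 69 lay above control with paraoxon and 55 with mipafox, and in the authors' processed values 50 and 47 of 74 did. The share of all probes above control is not given for these settings. Their median over all probes was 0.0321 and 0.069 after normexp correction, and 0.0213 and 0.0195 in the authors' values. Weighting arrays by their quality called 2 channel probes for paraoxon (2.15% of all probes) and 1 for mipafox (3.51%). With slide as a block 0 channel probes were called (0.00343% and 0.0206% of all probes), and 0 when paraoxon and control were fitted without mipafox (0.947%).

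**Figure D1:**
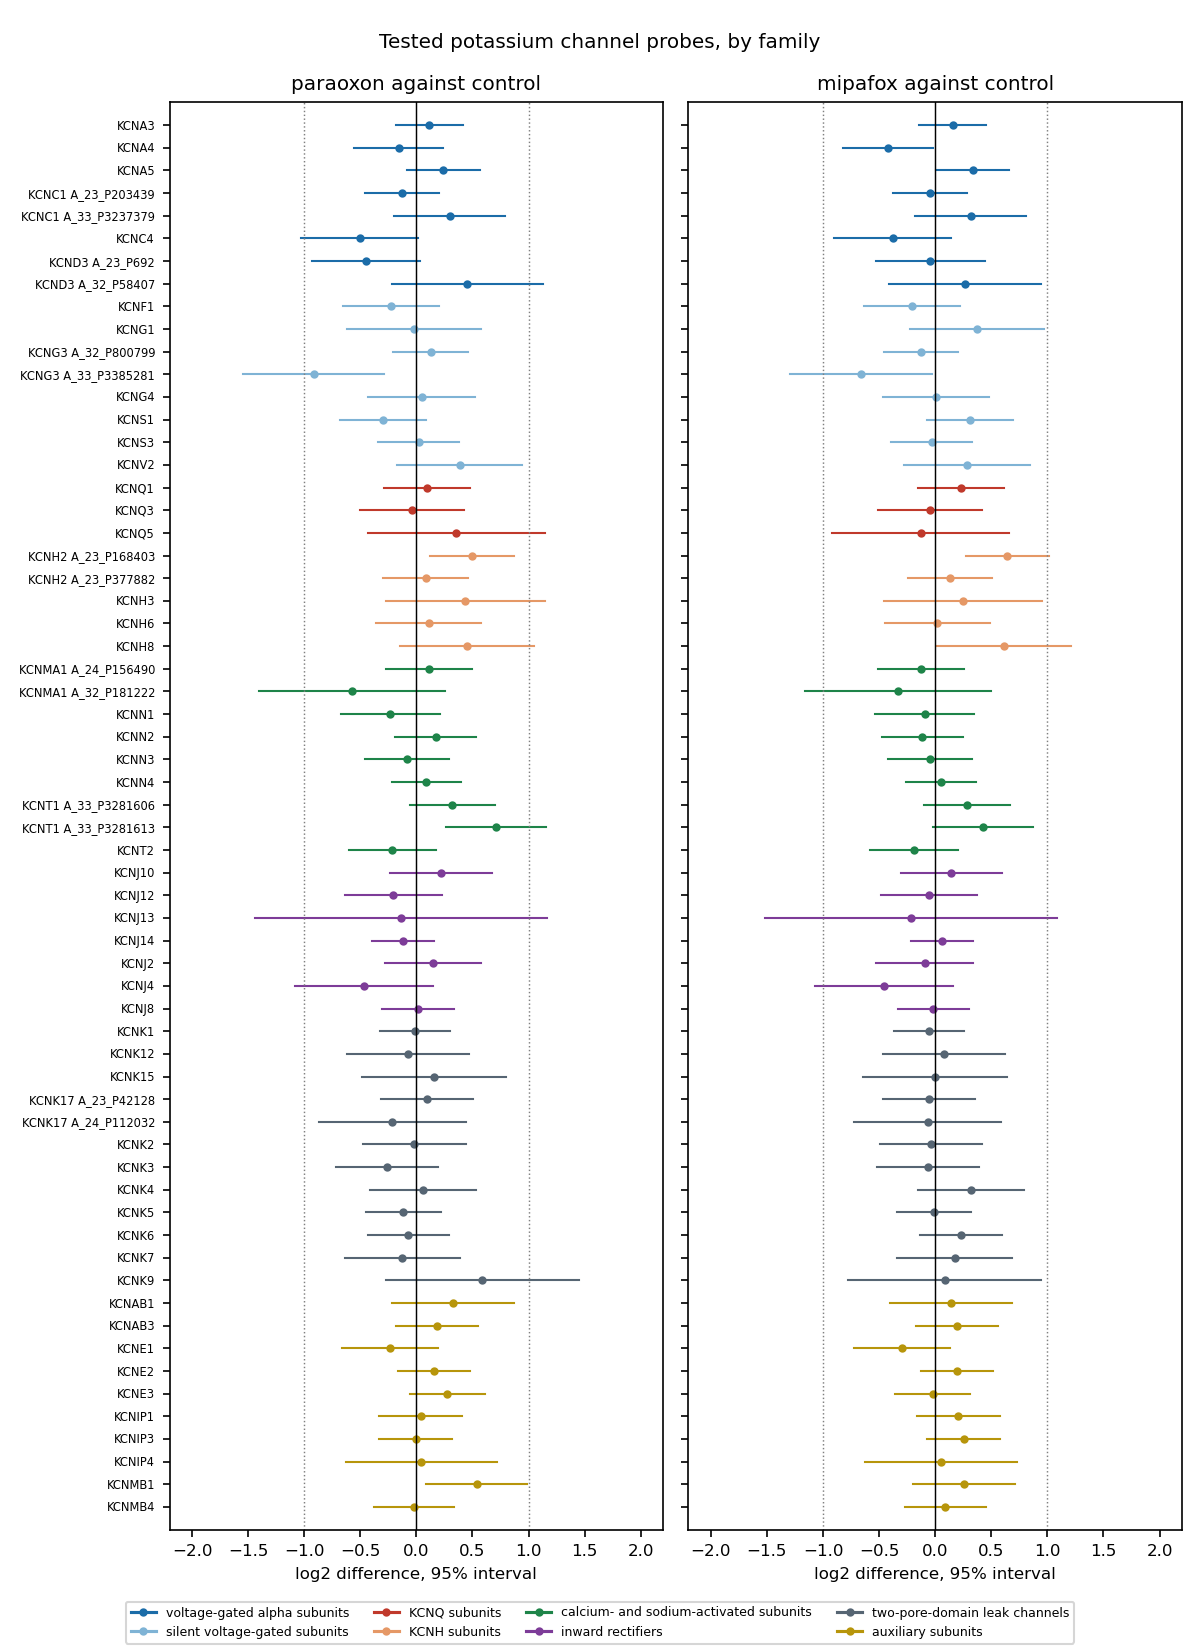
Log2 difference from control of 62 of the 69 tested potassium channel probes for paraoxon (left) and mipafox (right), coloured by family, with the 95% interval of the limma fit as a line and dotted lines at 1 and -1. All points lie within the dotted lines, and most intervals cross 0; KCND3 A_23_P692 was above background on no paraoxon array.

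The KCNQ subunits form the M-current and related slow potassium currents. KCNQ3, an M-current subunit, measured -4.14, -4.51 and -4.81 on control A to C, -4.46, -4.71 and -4.41 with paraoxon, and -4.44, -4.34 and -4.82 with mipafox. The groups overlapped, and the log2 differences were -0.04 (SE 0.20) and -0.05 (SE 0.20). KCNQ5, which also contributes to the M-current, differed by 0.35 and -0.13, and its arrays overlapped in both comparisons. The KCNQ5 value for paraoxon rested on paraoxon C, without which it was -0.07, and the mipafox value was 0.12 after normexp correction. KCNQ1, best known from the heart, differed by 0.09 and 0.23.

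KCNH genes encode the ether-a-go-go channels, among them KCNH2 (hERG), whose current helps to end the action potential. The KCNH2 probe A_23_P168403 measured -0.05, 0.18 and 0.20 in control, 0.59, 0.49 and 0.74 with paraoxon, and 0.50, 1.01 and 0.75 with mipafox. Every treated array lay above every control array. The log2 difference was 0.49 (SE 0.17, limma adjusted p 0.238) with paraoxon and 0.64 (SE 0.17, adjusted p 0.426) with mipafox. With the slide as a block these became 0.11 and 0.38. The second KCNH2 probe, A_23_P377882, overlapped between groups and differed by 0.08 and 0.13.

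The other tested KCNH probes also lay on the higher side. KCNH8, an Elk-type subunit, read -6.37, -5.61 and -5.83 in control and -4.92, -5.41 and -5.64 with mipafox, a difference of 0.61 (SE 0.27, limma adjusted p 0.705) that was 0.31 after normexp correction and 1.01 with the slide as a block. In control the KCNH8 probe was well above background on only 2 arrays. KCNH3 differed by 0.44 and 0.25, and KCNH6 by 0.11 and 0.02. All 5 tested KCNH probes, 2 of them of KCNH2, were thus above control in both comparisons, with medians of 0.44 and 0.25. Both comparisons use the same control arrays, here and for every other gene, so they are not independent. The direction of the KCNH probes held under quantile normalization, normexp correction and the authors' values. It turned for KCNH3 with the slide as a block, where the differences were -0.06 and -0.08. It also turned when a control array or a treated array was left out for KCNH2 A_23_P377882 and KCNH6.

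Voltage-gated alpha subunits build the delayed rectifiers and A-type channels. KCNC4, a fast Kv3 subunit, measured -4.97, -5.27 and -5.04 in control, -5.36, -5.27 and -6.18 with paraoxon, and -5.57, -5.48 and -5.38 with mipafox. All treated arrays lay below all control arrays, by a narrow margin on paraoxon B. With paraoxon the KCNC4 probe was well above background on only 2 arrays. The differences were -0.51 (SE 0.23, limma adjusted p 0.392) and -0.38 (SE 0.23, adjusted p 0.825), and they shrank to -0.09 and 0.02 after normexp correction. Without paraoxon C the paraoxon difference was -0.22.

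KCNA5 and KCNA4 were the alpha subunits with the smallest p for mipafox. KCNA5, a delayed rectifier, read -3.32, -3.35 and -3.46 in control and -3.11, -3.13 and -2.88 with mipafox, which did not overlap, a difference of 0.34 (SE 0.14, limma adjusted p 0.703). The paraoxon arrays, at -3.09, -3.33 and -2.98, overlapped control and differed by 0.24. KCNA4, an A-type subunit, differed by -0.42 (SE 0.18) with mipafox, its arrays overlapped control, and the difference was 0.07 after normexp correction.

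Silent subunits form no channel alone and modify other pore-forming subunits. The KCNG3 probe A_33_P3385281 read -4.68, -4.65 and -4.96 in control, -5.66, -6.22 and -5.16 with paraoxon, and -5.14, -5.28 and -5.85 with mipafox. Every treated array lay below every control array. The differences were -0.92 (SE 0.28, limma adjusted p 0.197) and -0.66 (SE 0.28, adjusted p 0.697), and they were -0.24 and -0.10 after normexp correction and -0.50 and -0.38 with the slide as a block. KCNS1, another silent subunit, read -6.24, -6.15 and -6.16 in control and -6.14, -5.77 and -5.71 with mipafox, just without overlap, a difference of 0.31 that was 0.04 with the slide as a block. With paraoxon the probe was above background on 1 array.

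Calcium- and sodium-activated channels couple ion entry to potassium efflux. KCNT1, a sodium-activated channel, had the smallest p of all channel probes for paraoxon. Its probe A_33_P3281613 measured -1.95, -2.04 and -1.96 in control, -1.61, -1.26 and -0.95 with paraoxon, and -1.72, -1.25 and -1.70 with mipafox. No treated array overlapped control, and the control arrays lay close together. The difference was 0.71 (SE 0.20, limma adjusted p 0.160) with paraoxon, and 0.42 (SE 0.20, adjusted p 0.743) with mipafox, and with the slide as a block 0.46 and 0.26. The second probe, A_33_P3281606, gave 0.32 and 0.28, with paraoxon arrays of -4.73, -4.90 and -4.87 above control at -5.44, -5.04 and -4.98. The annotation lists A_33_P3281613 and A_33_P3281606 on different transcripts, and their control means were -1.98 and -5.15. Whether both read KCNT1 RNA was not tested. The probes of KCNT1 had the same sign in both comparisons, as did those of KCNH2. The small-conductance and intermediate-conductance subunits KCNN1 to KCNN4 differed by -0.23 to 0.17 with paraoxon and by -0.12 to 0.05 with mipafox.

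KCNMA1, the pore of the large-conductance BK channel, had 4 probes, of which 2 were tested. A_24_P156490 differed by 0.11 and -0.13. A_32_P181222 differed by -0.57 and -0.33, and its mipafox arrays on slide 2 lay 1.26 above the one on slide 1, at -4.93 and -4.01 against -5.73. With the slide as a block its differences were -1.83 and -1.17. KCNMB1, the beta subunit that raises BK sensitivity to calcium, measured -0.98, -1.36 and -1.48 in control and -0.83, -0.94 and -0.44 with paraoxon, all above control, a difference of 0.54 (SE 0.20, limma adjusted p 0.290) that was 0.34 with the slide as a block. The mipafox arrays, at -1.15, -0.75 and -1.15, overlapped control and differed by 0.26. Of the 10 tested probes of auxiliary subunits 7 lay above control with paraoxon and 8 with mipafox.

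Of the inward rectifiers 7 probes were tested, with differences from -0.47 to 0.22 for paraoxon and from -0.46 to 0.14 for mipafox. The lowest was KCNJ4, a strong rectifier, which read -2.37, -2.54 and -2.39 in control, -2.46, -2.62 and -3.61 with paraoxon, and -2.68, -2.98 and -3.002 with mipafox, for differences of -0.47 and -0.46. The paraoxon value rested on paraoxon C, without which it was -0.11. Of the leak channels, which set the resting potential, 12 probes were tested, with differences from -0.26 to 0.59 and from -0.07 to 0.32. KCNK2 (TREK-1), opened by stretch and lipids, differed by -0.02 and -0.04, with its arrays between -1.09 and -0.33 in all, and by 0.57 and 0.35 with the slide as a block. KCNK3, an acid-sensitive leak channel, differed by -0.26 and -0.06. Its differences were 0.02 and 0.19 after normexp correction, and 0.01 and 0.01 in the authors' values. With paraoxon the KCNK3 probe was well above background on only 2 arrays.

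Several genes had probes that moved apart, and the sequences and annotated positions of these probes differ. The first 30 of 60 bases are given for the tested probes of KCND3, KCNG3, KCNH2, KCNT1 and KCNMB1, as the array annotation lists them on hg19, 5′ to 3′, all in lower case because no base is singled out.
KCND3 A_23_P692: agcagatgtttgagcagaactgcatggaga
KCND3 A_32_P58407: taatgttttccttagaggtcacacccttcc
KCNG3 A_32_P800799: tcatgctgaggtaataatagcaaaactgtt
KCNG3 A_33_P3385281: tcatcatcttggtagggtaaaaattatcct
KCNH2 A_23_P168403: tgctatttactgctcttattgttaaggata
KCNH2 A_23_P377882: attctccttcccttcaggatccgccacaaa
KCNT1 A_33_P3281606: gtttgtacggtcagcgctggaaacttctat
KCNT1 A_33_P3281613: ttgagcccaggagttgagtttaagatcagc
KCNMB1 A_24_P206121: tgtgctgcccctctaccagaaaagcgtgtg
The KCNG3 probes lay at chr2:42670916-42670975 and chr2:42669400-42669459, on the minus strand with 1456 bases between them. Those of KCND3 lay at chr1:112319817-112319876 and chr1:112313559-112313618, and those of KCNH2 at chr7:150642092-150642151 and chr7:150646984-150647043, where 4832 bases lie between them and the annotation lists different transcripts. The KCNT1 probes lay at chr9:138684933-138684992 and chr9:138687062-138687121 on the plus strand. Different transcripts are also listed for the probes of KCNT1 and for those of KCND3. The KCNMB1 probe spans chr5:169810819-169812341, which is longer than the probe because it crosses an intron. Whether a probe lies in coding or untranslated sequence was not annotated in the sources used here.

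Of the 9 genes with several tested probes, the probes of 6 differed in sign for paraoxon and of 4 for mipafox, counting probes that were not above background in every treatment. The gap between the probes was 1.043 with paraoxon for KCNG3. For KCNG3 the probe that gave -0.92 had a neighbour, A_32_P800799, that read -1.75, -1.61 and -1.57 in control and -1.60, -1.50 and -1.45 with paraoxon, a difference of 0.13 that was -0.06 after normexp correction. For KCND3, an A-type subunit, A_32_P58407 gave 0.45. A_23_P692 was well above background on 3 control arrays and no paraoxon array, so no difference is given for it. KCNC1, KCNK17 and KCNMA1 also had probes of opposite sign for paraoxon.

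The mipafox arrays on both slides allow a look at slide differences within 1 treatment. The channel probes had a median of -0.13 for slide 2 less slide 1 (all probes -0.08), with 27 of 69 higher on slide 2 (42.5% of all probes). Across the 69 probes this slide difference had a Pearson r of 0.05 with the paraoxon difference. Over 29121 probes r was 0.37. The 2 measures share no array but share probes and slides, so these are descriptions. The 5 channel probes of unadjusted p under 0.05 for paraoxon all had a slide difference of the same sign, as did 50.7% of the channel probes and 59.5% of all probes. Within slide 2, paraoxon less mipafox kept the sign for 4 of the 5, KCNH2 being the exception at -0.28.

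The channel probes had a median GC content of 43.3%, from 23.3% to 76.7%. The lowest was that of KCNH2 A_23_P168403. Within treatments, an array's deviation from its treatment mean went along with the GC content of the probe on some arrays: r across the 69 channel probes was 0.48 on control A, -0.48 on control B, -0.31 on control C and 0.31 on paraoxon A, and between -0.17 and 0.20 on the other arrays. Over all probes the same r was 0.45, -0.34, -0.31 and 0.21. Probes are not independent replicates, so these values are descriptions, and their part in the differences was not tested.

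Genes that work with these channels were measured the same way, and 0 of their probes were called. Of 12 tested probes of channel partners, such as the sulfonylurea receptors and the HCN pacemaker channels, 3 had an unadjusted p under 0.05 for paraoxon, where 13.3% of all tested probes did. Of 21 probes of the sodium-potassium pump and potassium-chloride cotransport 0 did, of 10 of the sodium channels 2, of 25 of the calcium channels 3, and of 28 of the muscarinic receptors and G protein subunits 4. For mipafox, where 6.96% of all tested probes did, the counts in the same order were 2, 2, 1, 0 and 3. SCN3A, a sodium channel of the developing brain, lay furthest below control of these lists, at -1.17 (SE 0.32, limma adjusted p 0.160) with paraoxon and -0.96 with mipafox. Its slide 2 arrays with mipafox lay -1.08 from the slide 1 array, so that the slide moves with it.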

How the data were processed

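The authors hybridized Cy3-labelled cDNA to 9 one-colour Agilent arrays and extracted spots with Feature Extraction 10.5.1.1. The deposited scanner files hold the processed signal as a linear intensity, and the authors also deposited a table of log2 values, used as an alternative. The log2 of the processed signal was taken and each array's 75th percentile subtracted. Control spots and outlier-flagged spots were dropped, and a probe's spots were averaged. A probe was tested where it was well above background on all arrays of at least 1 treatment and had at least 2 values in each. One mean per treatment was fitted to all 9 arrays with limma 3.58.1 in R 4.3.3. The fit was tested on simulated data. Figures used matplotlib.

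Precision is limited by the number of arrays. The genes named are the 8 probes of smallest p in each comparison, a fixed list of channels, genes whose probes differed in sign, and probes seen in 1 treatment and not another; KCNJ4, KCNH3, KCNH6 and SCN3A, and further genes given only by their difference, were added with their values in view. The members and lists were chosen with earlier results of these data known. No reference genome was used here, and coordinates are the files' own, on hg19. Counts cover all channel probes, and the values of some genes are not reported here.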

Additional observations from a re-analysis of the deposited data

How the results depend on the processing

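The count of called channel probes was 0 in both comparisons under every alternative listed except array weights, which called 2 for paraoxon and 1 for mipafox. That fit called 627 and 1024 probes of all those tested. The median over the channel probes for mipafox was 0.0067, where all probes had 0.001. It was 0.1426 after normexp correction (all probes 0.069), 0.1206 with slide as a block (0.0614) and 0.1086 with array weights (0.0442). With 1 array left out in turn it ran from -0.0217 without mipafox A (all probes -0.0231) to 0.102 without mipafox C (0.0547). For paraoxon the median was 0.043, where all probes had 0.0117. It was 0.1266 with slide as a block (all probes 0.1021), 0.0949 with no filter on dim probes (0.0729) and 0.0715 after normexp correction (0.0321). With array weights it was 0.0665 (all probes 0.0119) and with quantile normalization 0.0093 (-0.0015). With 1 array left out it ran from -0.0014 without paraoxon C (all probes 0.0016) to 0.0821 without paraoxon B (0.0291). With the replicate letter as a block 0 probes were called in either comparison and the medians were 0.043 and 0.0067. Arrays of the same letter in different treatments had correlations of -0.597 to 0.567, with a median of 0.116. Arrays of different letters had -0.587 to 0.661, with a median of 0.02. Whether the letters mark cultures handled together cannot be told from these correlations. The causes were not tested. With 3 arrays a treatment, changes within the intervals given could not be seen, and the differences of KCNG3 A_33_P3385281 shrank and those of the dim probes of KCNC4 and KCNA4 moved to or near 0, or past it, under normexp correction.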

Other observations

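KCNQ1OT1, the antisense RNA of the KCNQ1 locus, is outside the name rule. It read -4.62, -4.27 and -4.60 in control, -3.64, -3.57 and -3.48 with paraoxon, and -4.70, -3.95 and -4.44 with mipafox. All paraoxon arrays lay above control, with a log2 difference of 0.93 (SE 0.20, limma adjusted p 0.0967), while mipafox differed by 0.14. KCNQ1 itself differed by 0.09 and 0.23. Within mipafox, slide 2 lay 0.50 above slide 1 for KCNQ1OT1, and within slide 2 paraoxon lay 0.63 above mipafox.

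Among the calcium channel subunits 19 of 25 tested probes lay above control with paraoxon and 16 with mipafox, with medians of 0.11 and 0.07. CACNA1H, a T-type channel, read 0.88, 0.92 and 0.92 in control and 1.35, 1.57 and 1.06 with paraoxon, without overlap, a difference of 0.42 (limma adjusted p 0.342). The pump and cotransport list lay the other way with paraoxon, 15 of 21 probes below control.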
